A study of Mus musculus with 19 samples.

Results

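Short-chain fatty acid and lactate handling was followed in kidney RNA through 9 genes, picked by name and read across every library of the study. They are the sodium-coupled monocarboxylate transporters Slc5a8 and Slc5a12, the proton-coupled monocarboxylate transporters Slc16a1 and Slc16a7, the acetyl-CoA and propionyl-CoA synthetases Acss1, Acss2 and Acss3, and the medium-chain acyl-CoA synthetases Acsm2 and Acsm3. All 9 were found among the 19287 entries of the expression table by their Entrez gene identifiers, and all 9 passed the filter on low values.

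The 19 libraries came from kidneys of male C57BL/6 mice, an inbred laboratory strain. IRLacz (n = 4) and IRLac (n = 5) mice received a Lactobacillus strain by mouth for 4 weeks, were then put through renal ischemia-reperfusion, in which the kidney's blood flow is stopped and restored, and were killed on day 5 after it. IRLacz was taken as L. casei Zhang from its abbreviation, and IRLac as L. acidophilus by elimination. IR mice (n = 5) had the injury and sham mice (n = 5) the sham operation, with no gavage named for either group. The labels name no genetic change in any group and do not say that each library is its own mouse, so the p-values measure the spread between libraries, which may in part be technical.

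The kidney reabsorbs filtered lactate, pyruvate and short-chain fatty acids in the proximal tubule, the first stretch of the nephron. Slc5a8 and Slc5a12 carry these acids in from the tubule fluid with sodium, and Slc16a1 and Slc16a7 pass them across membranes with a proton. Inside the cell, acyl-CoA synthetases join acetate, propionate, butyrate and longer acids to coenzyme A, after which they can be burned, built into lipid or used to acetylate proteins, while lactate is turned into pyruvate for oxidation or for glucose synthesis.

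Of the 9 genes, 6 matched an entry in the RefSeq promoter table (build GRCm38.p6). Promoters of 4 are shown because the transporter whose difference after injury did not pass the test (Slc16a1) can be set beside 3 genes that fell (Slc5a8, Acsm2 and Acsm3). Each line gives the 250 bases before the start site, 5′ to 3′ on the gene's own strand, with every CG pair in capitals. Slc16a1 is at chr3:104638414-104638663, Slc5a8 at chr10:88885742-88885991, Acsm3 at chr7:119760673-119760922 and the first listed start of Acsm2 at chr7:119554090-119554339, all on the plus strand.
Slc16a1: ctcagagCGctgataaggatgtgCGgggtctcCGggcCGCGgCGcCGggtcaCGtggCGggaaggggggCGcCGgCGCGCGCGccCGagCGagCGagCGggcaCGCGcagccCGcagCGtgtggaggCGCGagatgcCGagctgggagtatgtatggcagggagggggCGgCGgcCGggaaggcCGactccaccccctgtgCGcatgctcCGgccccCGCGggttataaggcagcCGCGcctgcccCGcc
Slc5a8: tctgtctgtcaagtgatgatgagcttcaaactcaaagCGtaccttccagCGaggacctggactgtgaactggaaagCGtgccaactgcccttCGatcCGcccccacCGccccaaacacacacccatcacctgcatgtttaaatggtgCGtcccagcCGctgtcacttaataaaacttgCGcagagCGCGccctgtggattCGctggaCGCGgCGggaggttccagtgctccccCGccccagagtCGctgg
Acsm3: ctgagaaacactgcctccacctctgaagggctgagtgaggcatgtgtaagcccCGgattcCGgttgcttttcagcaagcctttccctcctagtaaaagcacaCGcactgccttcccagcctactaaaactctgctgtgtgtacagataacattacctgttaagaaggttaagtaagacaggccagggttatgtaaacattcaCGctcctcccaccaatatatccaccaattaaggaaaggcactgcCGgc
Acsm2: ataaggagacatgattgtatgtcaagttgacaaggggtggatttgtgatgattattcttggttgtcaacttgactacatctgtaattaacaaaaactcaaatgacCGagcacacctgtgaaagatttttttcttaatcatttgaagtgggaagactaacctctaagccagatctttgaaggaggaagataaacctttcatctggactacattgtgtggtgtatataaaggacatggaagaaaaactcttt

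The Slc16a1 stretch was 76.4% G or C with 37 CG pairs, the highest of the 6 genes. The Slc5a8 stretch was 58.8% G or C with 17 pairs, the Acsm3 stretch 49.2% with 5, and the Acsm2 stretch 36% with 1. Acss1 and Acss2, which also fell after injury, had stretches of 61.6% with 15 pairs and 64.0% with 13. Over all 32851 promoters in the table the median was 52.4% G or C and 6 CG pairs, so genes that fell stood on both sides of it. The printed stretches, with those of Acss1, Acss2 and a second listed start of Acsm2, were searched on both strands for 3 motifs, and no match overlapped another. These were CAAAGTC, the core of an HNF4 site (in 3.84% of all promoters), TCACCCC, the core of a sterol response element (4.31%), and the TATA box TATAAA (12.4%). The only match was in Acsm2, where TATAAA stood at -28 to -23, counted from the start site. A match here is a string of letters and was not tested as a binding site.

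Values are FPKM, fragments scaled by gene length and by library depth, so levels may be compared between genes. Differences are of mean log2(FPKM + 1), with the first-named group minus the other, from limma fitted over all 19 libraries and 13594 entries, and every adjusted p is its Benjamini-Hochberg value within a comparison, called below 0.05. On this scale the difference of a gene with low FPKM is understated. FPKM totals ran from 545590 to 584798 per library, and read depth is not given in the sources used here. Per-read steps in the lowest values gave whole numbers for only 64.7% of 354 values within 0.1 of a step, so reads were not recovered. Cell markers differed between injured and sham kidneys. The 14 proximal tubule markers summed to 3306 to 4826 FPKM in IR against 8853 to 9774 FPKM in sham libraries, with all 14 lower in IR. The 6 markers of injured proximal tubule summed to 784.5 to 1215 FPKM in IR against 7.58 to 10.3 FPKM in sham libraries. All 5 fibroblast and all 5 macrophage markers were also higher in IR than in sham libraries. Further along the nephron, 3 of 5 thick limb, 3 of 3 distal convoluted tubule and 4 of 8 collecting duct markers were lower in IR, with median differences of -1.06, -1.24 and -0.39, and so were the 2 of 3 red blood cell markers that could be tested (-2.25). Of 5 adipocyte markers Adipoq, Plin1 and Lep had a median of 0 FPKM in each group and Cidec stayed at 0.58 FPKM or below, while Fabp4, which endothelium also expresses, averaged 69.3 FPKM in IR and 60.3 FPKM in sham kidneys.

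The genes covered a wide range of levels in sham kidneys. Acsm2 stood highest at 663.0 ± 43.4 FPKM (SD, n = 5), rank 104 of 19287 entries, and Acsm3 followed at 359.9 ± 71.2 FPKM. Acss2 came next at 132.9 ± 7.32 FPKM, then Acss1 at 69.1 ± 8.17 and Slc5a8 at 63.7 ± 5.02 FPKM, whose libraries overlapped. Slc5a12 at 47.0 ± 5.48, Slc16a7 at 26.2 ± 3.53, Slc16a1 at 12.2 ± 2.05 and Acss3 at 2.77 ± 0.784 FPKM closed the order, and no other neighbours in it overlapped. In IR kidneys Acsm2 (223.5 ± 49.8 FPKM) was again on top, but Acsm3 (53.8 ± 26.2 FPKM) overlapped Acss2 (52.6 ± 8.43 FPKM). Slc5a12 (31.5 ± 9.08 FPKM) overlapped Acss1 (30.5 ± 8.03 FPKM), and Slc16a1 (11.1 ± 0.479 FPKM) overlapped Slc16a7 (8.27 ± 2.84 FPKM).

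**Figure D1:**
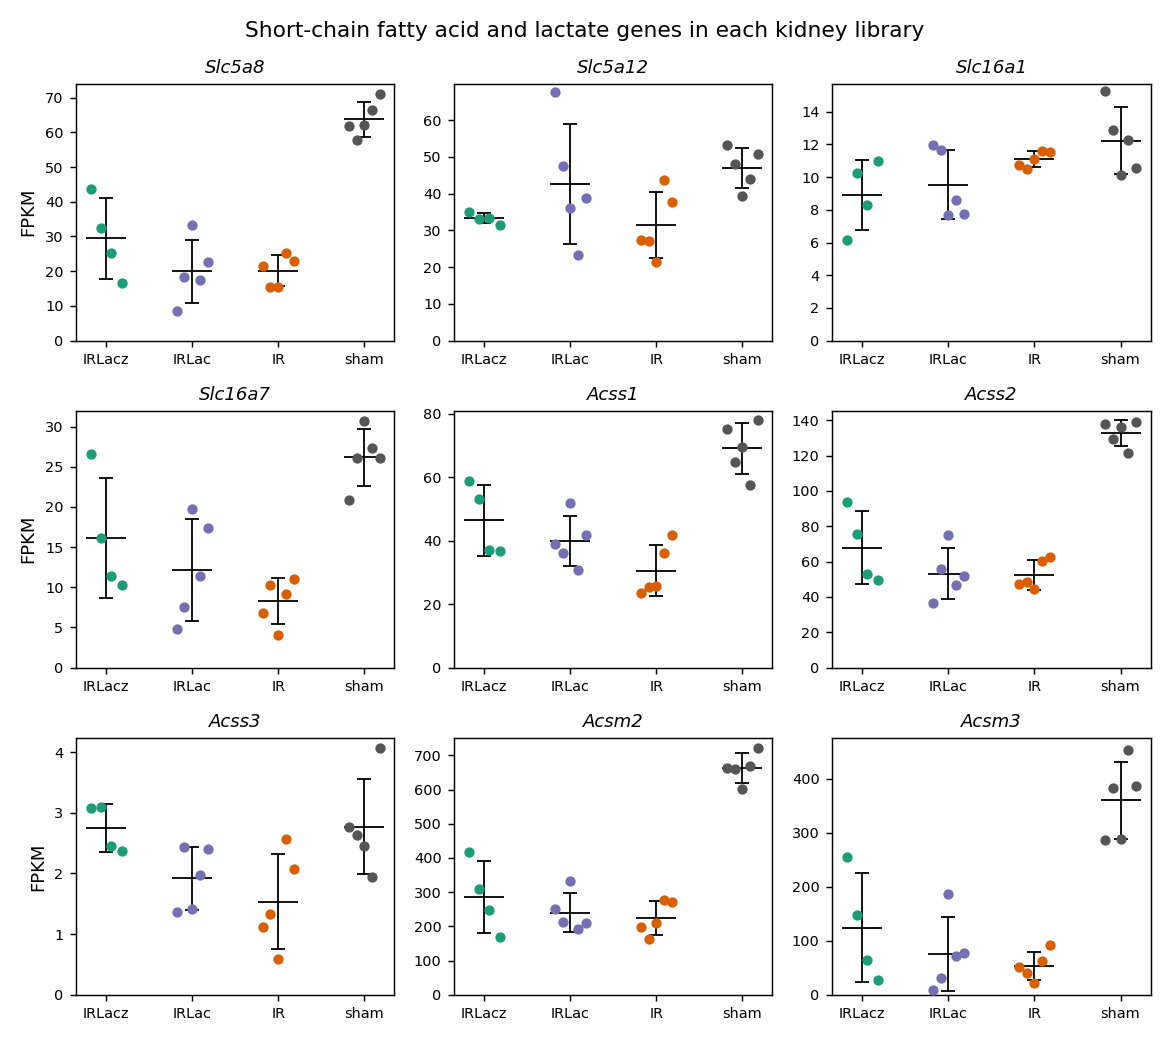
FPKM of each of the 9 genes (y axes, each from 0) in every library (points) of the IRLacz, IRLac, IR and sham groups, with the group mean and SD as black bars. In 6 genes (Slc5a8, Slc16a7, Acss1, Acss2, Acsm2 and Acsm3) all 5 IR libraries lie below all 5 sham libraries, while Slc16a1, Slc5a12 and Acss3 overlap.

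After injury, 8 of the 9 genes were lower in IR than in sham kidneys and none was higher, against 18.6% of all tested entries called lower and 57.0% called higher. Acsm3 showed the greatest drop and Slc16a1 was the gene that did not pass. The median difference of the 9 genes was -1.33, beside 0.29 over all tested entries. In 6 of the 9 the groups did not overlap, against 15.2% of all entries that were lower without overlap. The median over all entries depends on the scaling (0.06 after median-ratio scaling, -0.05 after quantile normalization), and the share of all entries called lower was then 31.2% and 38.3%, with 39.0% and 32.0% called higher. All 9 genes were called lower under both of those scalings. Fewer tubule cells and less RNA per tubule cell cannot be told apart in whole-kidney RNA.

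Slc5a8 (SMCT1), a high-affinity sodium-coupled carrier of lactate, pyruvate and short-chain fatty acids in the later proximal tubule, measured 21.43, 15.45, 15.39, 25.22 and 22.86 FPKM in IR libraries, against 61.7, 57.76, 62.01, 66.32 and 70.91 FPKM in sham libraries. Every IR library was below every sham library. The difference was -1.64 (SE 0.27, limma adjusted p = 2.5e-05). Slc5a12 (SMCT2), the low-affinity carrier of the early proximal tubule, measured 27.36, 27.02, 21.41, 43.85 and 37.66 FPKM in IR libraries, against 53.12, 47.97, 39.38, 43.96 and 50.78 FPKM in sham libraries. It too fell, by less, and the groups overlapped in 1 IR library (-0.60, SE 0.21, limma adjusted p = 0.0146). Slc5a8 made up 39.3 ± 3.40% of the summed FPKM of the pair in IR kidneys and 57.6 ± 3.29% in sham kidneys (SD, n = 5 each), with ranges of 36.4% to 43.9% and 53.7% to 61.2% that did not meet.

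Proximal tubule markers fell by unequal amounts. Slc5a2, the sodium-glucose carrier of the early proximal tubule, had a difference of -0.61 (SE 0.15, limma adjusted p = 0.00159), close to that of Slc5a12. Slc7a13, an amino acid carrier of the late proximal tubule, had a difference of -3.11 (SE 0.59, limma adjusted p = 0.000122). Both were picked after their values were seen, and other markers lay between them, such as Slc34a1 (-1.27), a phosphate carrier, and Gatm (-1.07), an enzyme of creatine synthesis. The 14 proximal tubule markers had a median of -1.11, and Slc5a8 fell further than 10 of them while Slc5a12 fell by less than 13 of them. What part the markers' fall has in that of the 9 genes was not tested.

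Slc16a1 (MCT1), which carries lactate, pyruvate and short-chain acids in many cell types, did not pass the test. It measured 10.77, 10.52, 11.1, 11.61 and 11.56 FPKM in IR libraries, against 15.27, 12.91, 10.16, 12.28 and 10.57 FPKM in sham libraries. The IR values lay inside the sham range. The difference was -0.12 (SE 0.14, 95% interval -0.41 to 0.18, limma adjusted p = 0.466). It depended on scaling, being called lower after median-ratio scaling (-0.37, adjusted p = 0.018) and quantile normalization (-0.46, adjusted p = 0.00402), with adjusted p up to 0.822 over its other alternatives. Slc16a7 (MCT2), a high-affinity carrier of pyruvate and lactate, measured 6.75, 10.25, 4.11, 9.16 and 11.08 FPKM in IR libraries, against 20.83, 26.05, 30.63, 27.35 and 26.09 FPKM in sham libraries. The groups did not overlap (-1.61, SE 0.32, limma adjusted p = 0.000168). Slc16a7 was 41.6 ± 9.25% of the pair's summed FPKM in IR and 68.0 ± 6.49% in sham kidneys (SD, n = 5 each).

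Acss2, the acetyl-CoA synthetase of cytosol and nucleus, was the most abundant of the 3 Acss genes. It measured 47.22, 48.23, 44.35, 60.53 and 62.87 FPKM in IR libraries, against 138.15, 129.37, 136, 121.66 and 139.09 FPKM in sham libraries. The groups stood far apart (-1.33, SE 0.17, limma adjusted p = 1.88e-06). In GENCODE vM21 its exons overlap those of Gss and Ggt7 on the other strand, and strand is not given in the sources used here, so reads of the overlaps cannot be told apart. Gss averaged 162.6 FPKM in IR and 242.2 FPKM in sham kidneys, and Ggt7 averaged 2.52 FPKM in IR and 0.538 FPKM in sham kidneys. Acss1, the mitochondrial acetyl-CoA synthetase, measured 23.62, 25.39, 25.6, 36.02 and 41.89 FPKM in IR libraries, against 75.12, 64.79, 69.57, 57.69 and 78.15 FPKM in sham libraries. These groups were apart as well (-1.18, SE 0.17, limma adjusted p = 5.26e-06). The Acss1 share of Acss1 plus Acss2 was 36.3 ± 2.58% in IR and 34.1 ± 1.51% in sham kidneys, ranges that overlapped.

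Acss3, a mitochondrial synthetase known in rat to prefer propionate, was the scarcest of the 9 genes. It measured 1.12, 1.33, 0.59, 2.57 and 2.08 FPKM in IR libraries, against 2.76, 2.63, 2.45, 1.95 and 4.06 FPKM in sham libraries. It fell (-0.60, SE 0.19, limma adjusted p = 0.00716) with groups that overlapped, since 2 IR libraries were above the lowest sham library.

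Acsm2, a mitochondrial medium-chain acyl-CoA synthetase whose human relatives are kidney and liver enzymes, measured 196.97, 161.82, 209.7, 277.39 and 271.8 FPKM in IR libraries, against 663.05, 658.75, 600.48, 669.89 and 722.59 FPKM in sham libraries. No IR library reached the lowest sham library (-1.59, SE 0.20, limma adjusted p = 1.19e-06). Acsm3, its relative further along chromosome 7, measured 51.49, 39.89, 22.12, 63.47 and 91.94 FPKM in IR libraries, against 287.29, 383.25, 289.06, 453.38 and 386.59 FPKM in sham libraries. The difference of -2.84 was the largest of the 9 and had the widest error (SE 0.64, limma adjusted p = 0.000556). Its exons overlap Eri2 on the other strand, which averaged 3.37 FPKM in IR and 3.36 FPKM in sham kidneys. Only 2 of the 14 proximal tubule markers fell by more than Acsm3, namely Slc7a13 (-3.11) and Slc22a7 (-4.64), an organic anion carrier. Acsm3 was 18.8 ± 5.75% of the summed FPKM of Acsm2 and Acsm3 in IR and 34.9 ± 3.90% in sham kidneys, with no library shared between the ranges.

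**Figure D2:**
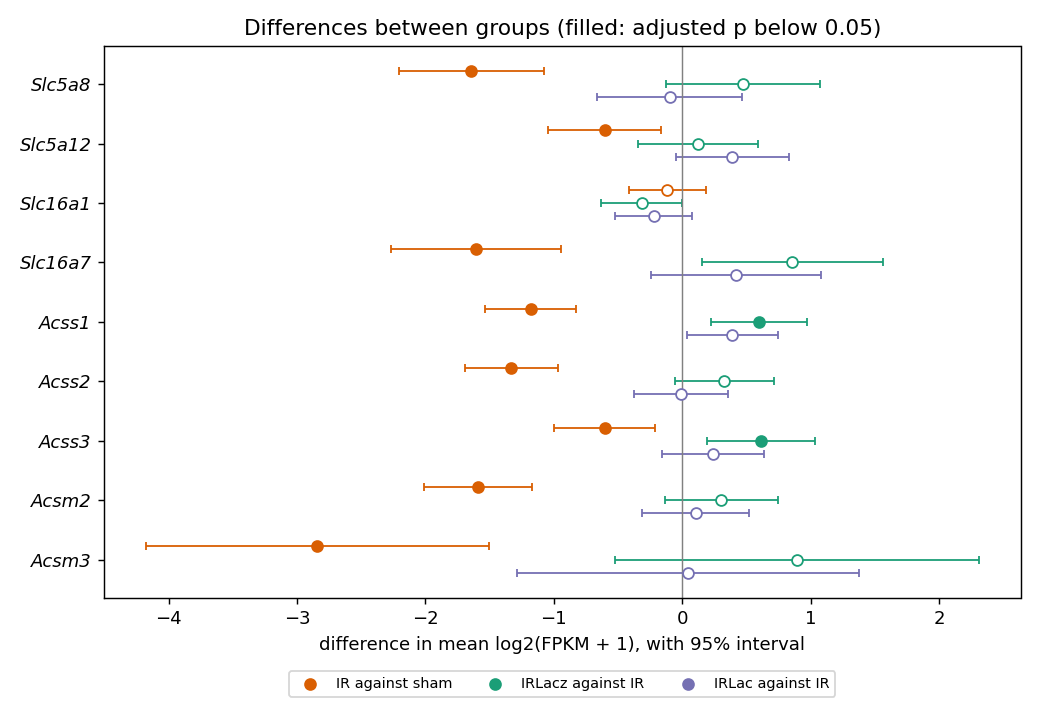
Difference in mean log2(FPKM + 1) with its 95% interval (x axis) for each of the 9 genes (y axis) in IR against sham, IRLacz against IR and IRLac against IR, from limma; filled points have an adjusted p below 0.05. Every IR against sham point except that of Slc16a1 is filled and below 0, and the filled points of IRLacz against IR are Acss1 (0.60) and Acss3 (0.61).

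With L. casei Zhang before the injury, 2 of the 9 genes were higher in IRLacz than in IR kidneys, Acss1 and Acss3, and none was lower, where 5.39% of all tested entries were called higher and 7.92% lower. The 2 groups overlapped in all 9 genes, while 5.33% of entries were higher without overlap. The median difference of the 9 genes was 0.47, beside -0.0041 over all tested entries, and 8 of the 9 differences were above 0. These differences and those of IR against sham rest on the same 5 IR libraries.

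Acss1 measured 58.92, 53.03, 37.22 and 36.89 FPKM in IRLacz libraries, against the IR values of 23.62 to 41.89 FPKM given above. Of the IRLacz libraries 2 were above all of IR and 2 were inside the IR range (0.60, SE 0.18, limma adjusted p = 0.0349). The call was lost without IRLacz 1 or 2 or without IR 1, 2 or 3, and over all alternatives the adjusted p ran from 0.0114 to 0.111. Acss3 measured 3.08, 3.09, 2.45 and 2.37 FPKM in IRLacz libraries, against 0.59 to 2.57 FPKM in IR libraries. Here 2 IRLacz libraries were above every IR library (0.61, SE 0.20, limma adjusted p = 0.0485). That call was lost without IRLacz 1, 2 or 3 or IR 1, 2 or 3, with adjusted p from 0.0204 to 0.133 over the alternatives.

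The remaining genes did not pass. Slc16a7 measured 26.62, 16.13, 11.46 and 10.28 FPKM in IRLacz libraries, against 4.11 to 11.08 FPKM in IR libraries, with a difference of 0.86 whose interval of 0.15 to 1.56 was above 0 but whose limma adjusted p was 0.0942. Acsm3 measured 254.92, 148.62, 65.25 and 27.34 FPKM in IRLacz libraries, against 22.12 to 91.94 FPKM in IR libraries. On the log2 scale it was spread more widely than the other 8 genes in that group (0.90, 95% interval -0.52 to 2.31, limma adjusted p = 0.377). Slc5a8 measured 43.8, 32.35, 25.12 and 16.48 FPKM in IRLacz libraries, against 15.39 to 25.22 FPKM in IR libraries (0.47, 95% interval -0.13 to 1.08, limma adjusted p = 0.265). In each of these 3 genes the first 2 IRLacz libraries were above all of IR and the fourth was inside the IR range.

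Acss2 measured 93.85, 75.66, 53.1 and 49.35 FPKM in IRLacz libraries, against 44.35 to 62.87 FPKM in IR libraries (0.33, limma adjusted p = 0.229). Acsm2 measured 416.69, 310.25, 246.58 and 169.08 FPKM in IRLacz libraries, against 161.82 to 277.39 FPKM in IR libraries (0.31, limma adjusted p = 0.332). Both pairs of groups overlapped, again with IRLacz 1 and 2 on top. Slc5a12, at 35.02, 33.15, 33.4 and 31.58 FPKM in IRLacz libraries against 21.41 to 43.85 FPKM in IR libraries, varied little within IRLacz (0.12, 95% interval -0.34 to 0.59, limma adjusted p = 0.737). Slc16a1, at 6.17, 10.26, 8.28 and 10.96 FPKM in IRLacz libraries against 10.52 to 11.61 FPKM in IR libraries, was the gene with a difference below 0 (-0.32, 95% interval -0.63 to 0.0004, limma adjusted p = 0.163).

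Cell markers moved in the same comparison. Of 5 fibroblast markers 4 were lower in IRLacz than in IR kidneys, with sums of 310.0 to 521.6 FPKM in IRLacz against 669.2 to 825.9 FPKM in IR libraries, and of 5 macrophage markers 4 were lower, with sums of 363.0 to 801.6 against 857.0 to 1251 FPKM. None of the 14 proximal tubule markers was called by limma (2 at an unadjusted p under 0.05), with a median difference of 0.11 and sums of 2693 to 6501 FPKM in IRLacz against 3306 to 4826 FPKM in IR libraries. Acss1, Acss3, Slc16a7 and Acsm3 each had a difference above those of 13 of these 14 markers. Among tubule markers further along the nephron, 3 of 8 collecting duct and 1 of 3 distal convoluted tubule markers were higher in IRLacz. Their median differences were 0.59 and 0.93. Of 5 thick limb markers 0 were called by limma (3 at an unadjusted p under 0.05), with all 5 differences above 0 and a median of 0.58. Acss1 (0.60) and Acss3 (0.61) thus lay near the thick limb and collecting duct medians and below that of the distal convoluted tubule. The part of these shifts in the values of the 9 genes was not tested.

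In IRLac mice, whose strain was taken as L. acidophilus, none of the 9 genes passed the limma test between IRLac and IR kidneys (adjusted p from 0.812 to 1.0; 1 gene, Acss1, at an unadjusted p under 0.05), and 1 of the 13594 tested entries did, or 0.00736%. The median difference was 0.10, beside 0.0024 over all tested entries. Acss1 measured 39.01, 36.04, 51.78, 30.85 and 41.71 FPKM in IRLac libraries, against 23.62 to 41.89 FPKM in IR libraries (0.39, 95% interval 0.04 to 0.74, limma adjusted p = 0.812). Slc5a12 measured 67.65, 47.44, 35.99, 23.24 and 38.92 FPKM in IRLac libraries, against 21.41 to 43.85 FPKM in IR libraries, and its first 2 IRLac libraries were above all of IR (0.39, 95% interval -0.05 to 0.83, limma adjusted p = 0.907). The intervals leave room for sizeable change in the more variable genes, of which Acsm3 had the widest, from -1.29 to 1.38. Slc5a8 ran from -0.66 to 0.47, Slc16a7 from -0.25 to 1.08, Acss2 from -0.37 to 0.36 and Acsm2 from -0.31 to 0.52.

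The other genes also varied among IRLac libraries. Acsm3 measured 8.93, 31.84, 187.05, 71.85 and 76.89 FPKM in IRLac libraries, a range that contained all of IR. Slc5a8 measured 8.39, 18.37, 33.3, 17.31 and 22.6 FPKM, and Slc16a7 measured 4.78, 7.52, 19.76, 11.44 and 17.4 FPKM. The first IRLac library was lowest and the third highest in all 3. Acss2 at 36.68, 55.84, 75.33, 46.69 and 51.73 FPKM repeated that order at its ends. Acsm2 at 252.2, 214.05, 333.85, 191.18 and 210.04 FPKM had the third library on top too but not the first at the bottom. Slc16a1 at 11.98, 11.67, 7.71, 8.6 and 7.74 FPKM and Acss3 at 1.37, 2.44, 1.41, 1.97 and 2.4 FPKM did not follow it.

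Between the strains, none of the 9 genes passed the limma test in IRLacz against IRLac kidneys (adjusted p from 0.332 to 0.79; 0 genes at an unadjusted p under 0.05), and 3 of all tested entries did, or 0.0221%. The median difference of the 9 genes was 0.34, beside -0.0075 over all tested entries. The largest were those of Acsm3 (0.85, 95% interval -0.57 to 2.27) and Slc5a8 (0.57, 95% interval -0.03 to 1.17). Acss1, called against IR in IRLacz and not in IRLac, had a difference between the strains of 0.21 (95% interval -0.17 to 0.58, limma adjusted p = 0.581), and Acss3 one of 0.37 (95% interval -0.04 to 0.79, limma adjusted p = 0.359). A difference between the strains in either gene was therefore not shown.

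Set against sham, 6 of the 9 genes were lower in IRLacz kidneys (13.5% of all entries were called lower) and 7 of the 9 in IRLac kidneys (16.8%). These counts depended on scaling. After median-ratio scaling 8 were called lower in IRLacz (27.0% of all entries) and 9 in IRLac (30.2%). After quantile normalization 9 were called lower in IRLacz (30.6% of all entries) and 8 in IRLac (35.0%). In IRLacz, Slc5a8 (-1.17), Acss1 (-0.58), Acss2 (-1.0), Acsm2 (-1.28) and Acsm3 (-1.95) were lower, with limma adjusted p from 4.24e-05 to 0.0156, and so was Slc16a1 (-0.43, limma adjusted p = 0.0163). Slc16a7 (-0.75, limma adjusted p = 0.0541), Slc5a12 (-0.48, limma adjusted p = 0.062) and Acss3 (0.01, limma adjusted p = 0.972) did not pass. The IRLacz and sham libraries of Slc5a12 did not overlap, and it was called lower under 4 of 9 alternatives other than leaving out a library (median-ratio scaling, quantile normalization, a fit of the 2 groups alone and library weights), with adjusted p from 0.000813 to 0.118 over all of its alternatives. Some of these calls hang on a library: without IRLacz 1, Slc16a1 was lost (adjusted p = 0.0791) and Slc16a7 passed (0.0127), and without IRLacz 4, Acsm3 was lost (0.0814). Slc16a7 was also called lower under 4 of 9 alternatives other than leaving out a library. Over its alternatives the adjusted p of Slc16a1 ran from 0.000173 to 0.0791, that of Slc16a7 from 0.00858 to 0.169 and that of Acsm3 from 0.00175 to 0.0814.

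In IRLac kidneys, Slc5a8 (-1.74), Slc16a7 (-1.19), Acss1 (-0.79), Acss2 (-1.34), Acsm2 (-1.49) and Acsm3 (-2.80) were lower than in sham, with limma adjusted p from 1.98e-06 to 0.0025. Slc16a1 was lower as well (-0.34, limma adjusted p = 0.0384), though not without IRLac 3, 4 or 5 or sham 1, 2 or 4. Its call was also lost under 2 of 9 alternatives other than leaving out a library, rescaling to TPM among them. Over all alternatives the adjusted p of Slc16a1 ran from 0.000181 to 0.113. Slc5a12 (-0.21, limma adjusted p = 0.363) and Acss3 (-0.37, limma adjusted p = 0.0858) did not pass. Both were called lower after median-ratio scaling, which called all 9 genes. Acss3 was also called after quantile normalization, with the replicate block and without sham 4, and its adjusted p ran from 0.000391 to 0.234, that of Slc5a12 from 0.0484 to 0.921. These comparisons and that of IR share the same 5 sham libraries. For Slc16a1 the 3 differences from sham were -0.43 in IRLacz, -0.34 in IRLac and -0.12 in IR.

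**Figure D3:**
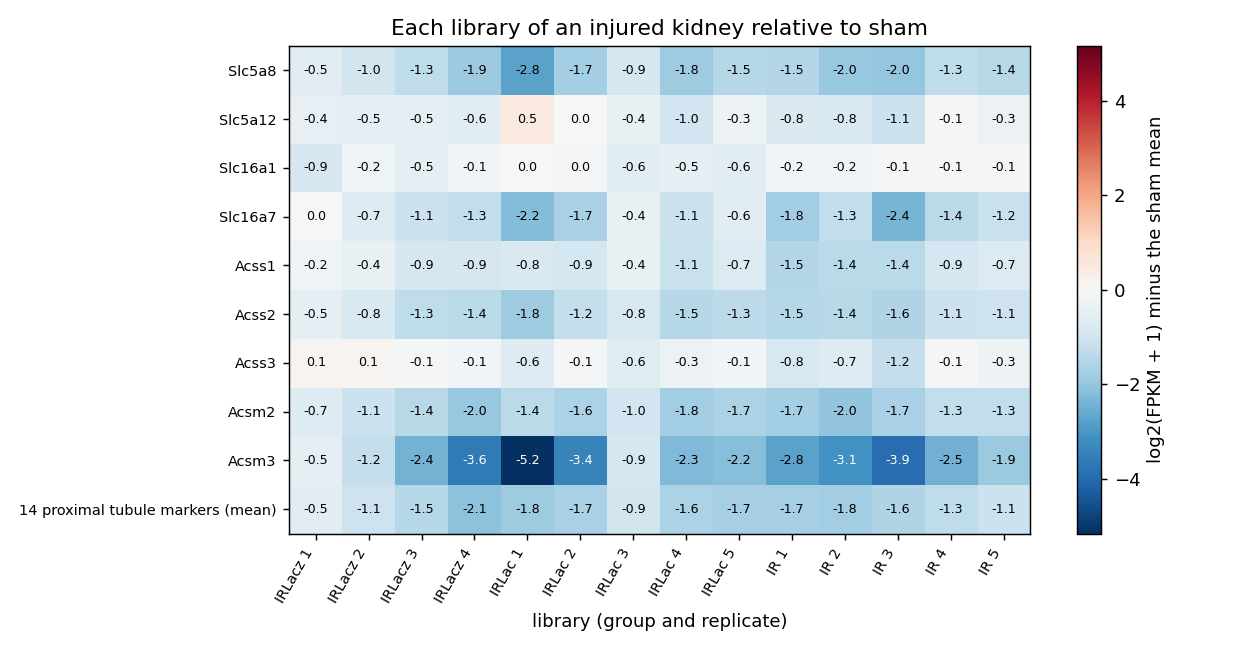
Each library of an injured kidney (x axis) as log2(FPKM + 1) minus the sham mean, in colour and figures, for the 9 genes and for the mean of 14 proximal tubule markers (y axis). The first IRLacz library and the third IRLac library are closest to sham in Slc5a8, Acsm2 and Acsm3, and the first IRLac library is farthest below sham in Acsm3 (-5.16) while above it in Slc5a12 (0.52).

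Libraries of 1 group differed widely from each other. Relative to the sham mean, Acsm3 ran from -3.65 to -0.47 in IRLacz, from -5.16 to -0.92 in IRLac and from -3.94 to -1.93 in IR. The mean of the 14 proximal tubule markers was -0.54 in the first IRLacz library and -2.11 in the fourth, -0.94 in the third IRLac library and -1.84 in the first. The 6 markers of injured proximal tubule summed to 289.7 FPKM in the first IRLacz library and 1125 FPKM in the fourth. They summed to 460.2 FPKM in the third IRLac library, against 784.5 to 1215 FPKM in IR libraries.

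In the first IRLac library the 2 sodium-coupled carriers parted. Slc5a8 was 2.78 below the sham mean on the log2 scale and Slc5a12 was 0.52 above it, so that Slc5a8 was 11% of their summed FPKM, the lowest share of any library. Of the 14 proximal tubule markers 13 were below all sham libraries there, among them Slc7a13 at 12.1 FPKM, its lowest value in any library. The other, Slc5a2 at 246.5 FPKM, was the highest of any injured kidney and inside the sham range of 213.9 to 265.9 FPKM. Markers further along the nephron were low there too. Mean log2(FPKM + 1) was 5.10 for thick limb markers (sham 7.18 to 7.57) and 2.39 for distal convoluted tubule markers (sham 4.85 to 5.26). Both were the lowest of any library. In the first IRLacz library Slc7a13 stood at 302.6 FPKM and Slc5a2 at 166.7 FPKM, and Slc5a8 was 55.6% of the pair. In sham libraries Slc7a13 ran from 446.3 to 555.2 FPKM. The part of the markers in these values was not tested.

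Of 56 other genes of the pathway, 54 were in the table and 49 could be tested. In IR against sham kidneys 35 of the 49 were lower, 6 were higher and 8 did not pass, with a median difference of -0.78. Over all tested entries 18.6% were lower and 57.0% higher, with a median of 0.29, and each count below is to be read against those shares. The list and its groups were chosen with earlier results of these data known. The genes that burn propionate and butyrate were lower nearly throughout, with 6 of 6 in the propionate pathway and 7 of 8 in butyrate oxidation and ketone bodies. Pccb, a subunit of propionyl-CoA carboxylase, averaged 92.6 ± 8.92 FPKM in IR and 179.2 ± 3.53 FPKM in sham kidneys (-0.95, limma adjusted p = 3.1e-07). Mmut, the methylmalonyl-CoA mutase that follows it, averaged 30.1 ± 5.74 FPKM in IR and 66.6 ± 5.55 FPKM in sham kidneys (-1.14, limma adjusted p = 4.71e-06). Hadh, a dehydrogenase of short-chain fatty acid oxidation, was lower by a like amount (-1.19, limma adjusted p = 5.51e-08).

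Among lactate and pyruvate genes 6 of 8 were lower in IR than in sham kidneys. Ldha and Ldhb, the subunits of L-lactate dehydrogenase, were the other 2. After median-ratio scaling 7 of the 8 were called lower, which takes in Ldha or Ldhb, and after quantile normalization 6 were. Ldha averaged 511.1 ± 19 FPKM in IR and 529.7 ± 13.4 FPKM in sham kidneys (limma adjusted p = 0.396), and Ldhb averaged 1124 ± 150.2 FPKM in IR and 1006 ± 30.6 FPKM in sham kidneys (limma adjusted p = 0.194). Ldhd, the mitochondrial D-lactate dehydrogenase, fell to 169.3 ± 32.6 FPKM in IR, against 548.6 ± 40.2 FPKM in sham kidneys (-1.71, limma adjusted p = 1.95e-07). Pck1, which commits lactate carbon to glucose synthesis, fell to 171.6 ± 48.9 FPKM in IR, against 825.2 ± 59.3 FPKM in sham kidneys (-2.31, limma adjusted p = 3.19e-07).

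Transporters went both ways, with 3 of 8 higher and 4 of 8 lower in IR than in sham kidneys, a smaller share higher than the 57.0% of all entries. After quantile normalization 1 was higher and 5 were lower. Slc16a3 (MCT4), the lactate exporter of glycolytic cells, measured 4.36, 4.05, 3.79, 3.28 and 3.94 FPKM in IR libraries, against 0.62, 0.61, 1.3, 0.74 and 0.48 FPKM in sham libraries. The groups were apart and low (1.49, SE 0.15, limma adjusted p = 1.15e-07). Emb, a chaperone of monocarboxylate transporters, was higher (0.49, limma adjusted p = 2.84e-05), though not called after quantile normalization. Slc16a6 was higher (0.39, limma adjusted p = 0.00858), though not called after median-ratio scaling (0.16) or quantile normalization (-0.07). Slc16a13, another of the monocarboxylate carrier family, was lower (-0.81, limma adjusted p = 2.05e-07).

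Of the other acyl-CoA genes 5 of 6 were lower. Acsm1, a butyryl-CoA synthetase, averaged 24.6 ± 3.78 FPKM in IR and 82.5 ± 9.68 FPKM in sham kidneys (-1.71, limma adjusted p = 7.21e-09). Acot12, an acetyl-CoA hydrolase, averaged 23.6 ± 4.46 FPKM in IR and 80.0 ± 6.37 FPKM in sham kidneys (-1.74, limma adjusted p = 9.68e-08). Of 4 users of acetyl-CoA, Acacb (-1.18), the carboxylase of the mitochondrial surface, and Crat (-0.70), carnitine acetyltransferase, were lower. Srebf1, the sterol-response factor known to act on Acss2, was higher, averaging 28.7 ± 1.87 FPKM in IR and 14.7 ± 1.51 FPKM in sham kidneys (0.92, limma adjusted p = 8.22e-08), while Acss2 was lower. Receptors for these acids were scarce: Ffar2, Ffar3 and Hcar2 stayed under 1 FPKM in all libraries and were not tested. The lactate receptor Hcar1 averaged 0.544 ± 0.159 FPKM in IR and 1.11 ± 0.319 FPKM in sham kidneys (-0.45, limma adjusted p = 0.00541). Hcar1 passed the filter only through sham and IRLacz libraries. Its highest value was 0.73 FPKM in IR and 0.78 FPKM in IRLac libraries. Its call is therefore given as a description and not as support for a fall.

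**Figure D4:**
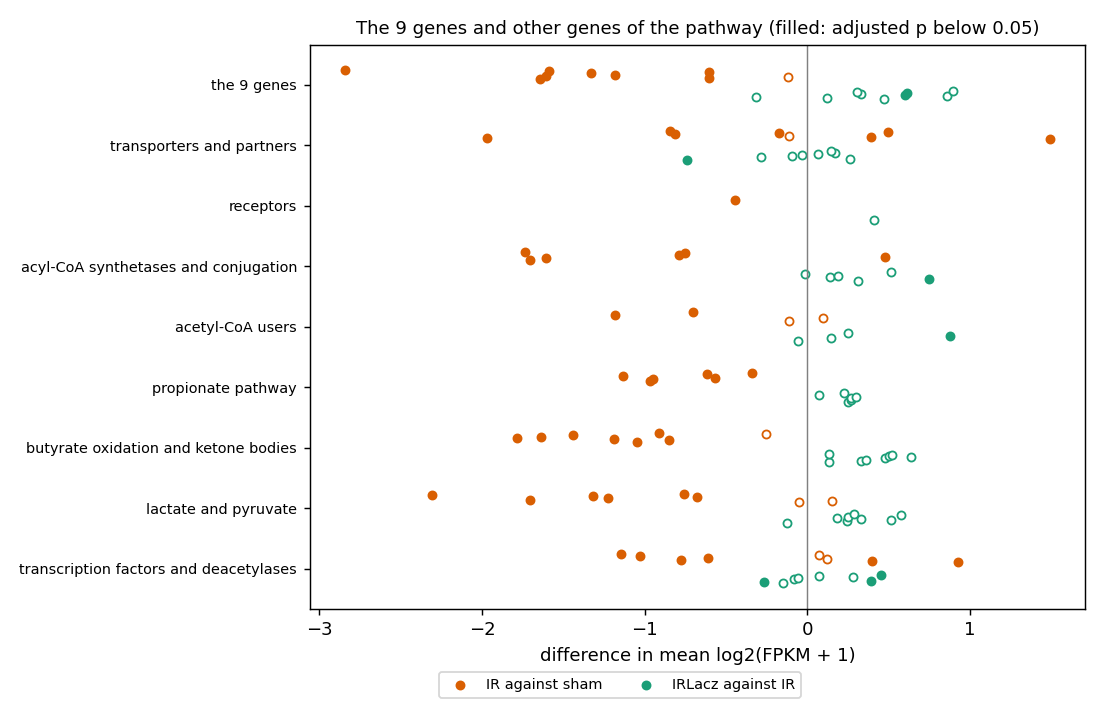
Difference in mean log2(FPKM + 1) (x axis) of each of the 9 genes and of 49 other pathway genes in 8 lists (y axis), for IR against sham and IRLacz against IR; filled points have a limma adjusted p below 0.05. Of the 49, 35 are filled below 0 and 6 above it in IR against sham, and 4 are filled above 0 and 2 below it in IRLacz against IR.

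In IRLacz against IR kidneys 6 of the 49 pathway genes were called, 4 higher and 2 lower. That is near the 5.39% of all entries called higher and 7.92% called lower, so the count of calls is no result about the pathway. The median difference of the 49 was 0.25, beside -0.0041 over all tested entries, and 38 differences were above 0. By limma 21 of the 49 had an unadjusted p under 0.05, 17 higher and 4 lower. Acsm5, a neighbour of Acsm2 on chromosome 7, was higher (22.6 ± 7.42 FPKM in IRLacz, n = 4, and 12.7 ± 2.73 FPKM in IR, n = 5; 0.75, limma adjusted p = 0.0188). Acacb (0.88, limma adjusted p = 0.0346) and Sirt3 (0.45, limma adjusted p = 0.0499), a mitochondrial deacetylase that acts on Acss1, were higher too, though Sirt3 was not called after median-ratio scaling (adjusted p = 0.0783, range over the 3 scalings 0.0407 to 0.0783). Slc16a3 was lower at 1.33, 2.05, 1.49 and 3.1 FPKM in IRLacz libraries, each below the lowest IR library (-0.74, limma adjusted p = 0.0104), as was Srebf2 (-0.27, limma adjusted p = 0.0305). Leaving out 1 library lost the calls of Acsm5 (IRLacz 1 or 2, IR 2 or 3) and Acacb (IRLacz 1 or 2, IR 1, 2 or 3). It also lost that of Srebf2 (IRLacz 1 or 3, IR 2 or 3), and not that of Slc16a3. What leaving out a library did to the call of Sirt3 is not reported here. None of the 49 was called by limma in IRLac against IR (2 at an unadjusted p under 0.05) or in IRLacz against IRLac (11 at an unadjusted p under 0.05). Against sham, 34 were lower and 6 higher in IRLacz (13.5% and 56.9% of all entries), and 36 lower and 7 higher in IRLac (16.8% and 58.0%).

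The entries whose profiles lay closest to each gene were found by the mean absolute difference of log2(FPKM + 1) from the sham mean over the 19 libraries, which is a description. Acss2 was closest to Hibadh (0.09) and Aldh4a1 (0.09), and Acsm2 to Aldh8a1 (0.09) and Fbp1 (0.09), enzymes of amino acid breakdown and, for Fbp1, of glucose synthesis. Slc16a7 was closest to Esrrb (0.10), a nuclear receptor, and Cpt1b (0.12), and Acss1 to Acaa2 (0.12), a fatty acid oxidation enzyme, and Pdk2 (0.13), a kinase of pyruvate dehydrogenase. Slc5a8 was closest to Crot (0.13) and Macrod2 (0.14), Slc16a1 to Arhgef10l (0.13) and Slc16a11 (0.14), and Slc5a12 to Pdp2 (0.17) and Nubpl (0.18). Acss3 was closest to Map2k6 (0.15) and Ppargc1a (0.17). Nearness of this kind was common for some genes. Of 13137 entries searched, 1036 lay within 0.25 of Slc16a1, 411 of Acss1 and 383 of Acss3, and the fewest above 0 were the 22 of Slc16a7. Acsm3 had no entry within such a distance, its closest being Cyp2d9 (0.37) and Mep1b (0.39), a subunit of the brush-border protease meprin.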

How the data were processed

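RNA was sequenced in 19 mouse kidney libraries of 4 groups. The authors deposited 1 table of FPKM values for each gene and library, which is the file used here. HISAT, StringTie 1.0.4 and the build mm9 are listed, without their roles, per the submitters' processing notes. The sources used here do not give the annotation, strand, handling of shared reads or read depth, so the precision comes from the spread between libraries only. Groups came from the sample titles. Of 19287 entries, 18238 were named through the RefSeq GRCm38.p6 gene table, 933 are loci without a gene name and 116 identifiers had no match. A value of 0 may be a failed estimate, since 27 entries with a median above 5 FPKM are listed at 0 in a library.

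A minimum of 1 FPKM in 4 or more libraries left 13594 entries, which limma 3.58.1 (R 4.3.3, variance trend fitted) tested on log2(FPKM + 1), that is with a pseudocount of 1. A single model held the 4 groups without a replicate block. Benjamini-Hochberg adjustment ran over all tested entries within each of 6 comparisons. Tests were checked on simulated data. The alternatives were another pseudocount (0.1), no filter or a mean of at least 5 FPKM, rescaling to TPM, median-ratio scaling, quantile normalization, a fit of the 2 groups compared, library weights, the replicate number as a block, and leaving out each library in turn.

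The 9 genes, the pathway list, the marker lists and the tests were chosen with earlier results of these data known. All 9 genes were named in every comparison. Of the pathway list, up to 2 genes of each group with the smallest adjusted p were named in each comparison, with Ldha, Ldhb, Ffar2, Ffar3 and Hcar1 by their values, and for each of the 9 genes the 2 entries with the closest profile. Other pathway genes and the markers were named after their values were seen. Promoter stretches are the 250 bases before the start site in the RefSeq table, and overlapping genes were read from GENCODE on GRCm38. Proteins were not analysed here. Some pathway genes are counted but not reported by name here.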

Additional observations from a re-analysis of the deposited data

How the results depend on the processing

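In IR against sham, IRLacz against sham and IRLac against sham, the counts of called entries, of the 9 genes and of pathway genes stayed within 1.5 times the reported count under every alternative run. In IRLacz against IR, the count of 2 of the 9 genes was 1 with a pseudocount of 0.1, with a mean of at least 5 FPKM (which leaves Acss3 out) and after rescaling to TPM, 0 with no filter and 0 with a fit of the 2 groups compared, and ran from 0 to 2 when a library was left out. Called entries in that comparison (1809) numbered 885 in the fit of the 2 groups and 2978 with library weights, and 606 to 2197 when a library was left out. Pathway genes (6) numbered 2 and 14 in those fits and 2 to 17 when a library was left out. In IRLac against IR the 1 called entry became 0 with a mean of at least 5 FPKM and 0 with library weights, and 0 to 116 when a library was left out. In IRLacz against IRLac the 3 called entries became 1 with a pseudocount of 0.1, 5 with no filter, 0 with a mean of at least 5 FPKM, 5 after quantile normalization, 1 in the fit of the 2 groups, 167 with library weights and 1 to 490 when a library was left out, and pathway genes ran from 0 to 1. None of the 9 genes was called in either of these comparisons under any alternative run. After quantile normalization, IRLacz against sham gave -0.51 for Acss3 (adjusted p = 0.029), where the reported difference is 0.01, and -0.23 for Acaca, where it is 0.25. The causes of these moves were not tested. Some of the alternatives, though not all, bring a smaller sample or entry set by themselves. Read depth is not given, so no limit of detection can be stated for Acss3 or the receptors, whose FPKM are low.

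Replicate numbers did not pair the libraries: deviations from the group means correlated between -0.39 and 0.23 for same-numbered libraries, and 3 of 19 libraries correlated best with their own number. With the replicate number as a block, 8 of the 9 genes were called in IR against sham, 2 in IRLacz against IR, 6 in IRLacz against sham and 8 in IRLac against sham, where Acss3 passed (adjusted p = 0.0499). Called entries under the block were 10108 in IR against sham, 1574 in IRLacz against IR, 0 in IRLac against IR and 1 in IRLacz against IRLac.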
